A study of Mus musculus with 24 samples.

Results

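The genes described here are 10 of the 33272 genes in the deposited table, chosen by name as the core of bile acid synthesis and transport. Cyp7a1, Cyp8b1, Cyp27a1 and Cyp7b1 encode cytochrome P450 enzymes of synthesis, and Baat encodes the enzyme that joins bile acids to an amino acid. Slc10a1 (the protein NTCP) and Slco1b2 (an organic anion transporting polypeptide) take bile acids up from blood into hepatocytes, and Abcb11 (the bile salt export pump) moves them into bile. Nr1h4 encodes the bile acid receptor FXR, and Nr0b2 encodes its target, the co-repressor SHP. Every member passed the filter on low counts in liver and in kidney, so all 10 are accounted for in each comparison.

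The study profiled the transcriptome of 2 organs, liver and kidney, in C57BL/6 mice under 4 conditions, each with 3 libraries per organ. The combination arm received CBLB502, a flagellin derivative that activates the receptor TLR5, at 0.2 mg/kg and 30 min later cisplatin, a DNA-crosslinking drug, at 20 mg/kg. The cisplatin arm received cisplatin, the CBLB502 arm received CBLB502, and the control arm was untreated. Cisplatin was given by the intraperitoneal route, and organs were taken at 72 h. The labels give no clock time of dissection, sex, age or fasting state, and no time or vehicle for the controls. The labels do not tie the 3 libraries of an arm to different mice, so every p-value rests on variation among libraries that could be technical.

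Bile acids are made from cholesterol in hepatocytes. In the classical route Cyp7a1 performs the first and rate-limiting step, and Cyp8b1 adds the hydroxyl group that makes cholic acid. In the alternative route Cyp27a1 oxidises the side chain and Cyp7b1 hydroxylates the oxysterols that result. Bile acids bind FXR, which induces Nr0b2 and Abcb11, and SHP lowers Cyp7a1 and Cyp8b1 transcription. In kidney, Cyp27a1 and Cyp7b1 take part in oxysterol metabolism, and Nr1h4 is expressed in tubule cells, whereas Cyp7a1, Cyp8b1 and Abcb11 are genes of hepatocytes.

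The deposited table places Cyp7a1 (ENSMUSG00000028240) at chr4:6265612-6275633, Cyp8b1 (ENSMUSG00000050445) at chr9:121914356-121916305, Cyp27a1 (ENSMUSG00000026170) at chr1:74713574-74737892, Cyp7b1 (ENSMUSG00000039519) at chr3:18071950-18243338, Baat (ENSMUSG00000039653) at chr4:49489422-49506557. It places Slc10a1 (ENSMUSG00000021135) at chr12:80953183-80968705, Abcb11 (ENSMUSG00000027048) at chr2:69238282-69342614, Slco1b2 (ENSMUSG00000030236) at chr6:141629518-141686646, Nr0b2 (ENSMUSG00000037583) at chr4:133553376-133556536 and Nr1h4 (ENSMUSG00000047638) at chr10:89454234-89506658. Its genome build is not given in the sources used here, and 8 of the 10 have the same start and end in GENCODE vM21. Abcb11 overlaps Gm13613 and Gm13614 on the opposite strand and Cyp7b1 overlaps Gm23686 on its own strand, and since the strand setting of the counting is not given, reads of overlapping genes cannot be told apart.

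Promoter sequences of 7 of the 10 members were found in the RefSeq table of build GRCm38.p6; Cyp7a1, Cyp7b1 and Baat were not matched. The 250 bases before the start site are shown for an enzyme, an uptake carrier, the export carrier and both nuclear receptors. The log2 levels of these genes correlated positively in every pair over the 9 treated liver libraries, with Pearson's r from 0.652 to 0.973. Each runs from 5′ to 3′ on the strand of the gene, and capitals mark every match to a searched motif.
Cyp8b1, chr9:121916306-121916555, minus strand: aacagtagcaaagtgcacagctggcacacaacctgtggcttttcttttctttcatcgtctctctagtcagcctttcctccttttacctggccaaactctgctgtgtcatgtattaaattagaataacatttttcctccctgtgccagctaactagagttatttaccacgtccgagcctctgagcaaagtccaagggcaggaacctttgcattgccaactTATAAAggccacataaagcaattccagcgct
Slc10a1, chr12:80968706-80968955, minus strand: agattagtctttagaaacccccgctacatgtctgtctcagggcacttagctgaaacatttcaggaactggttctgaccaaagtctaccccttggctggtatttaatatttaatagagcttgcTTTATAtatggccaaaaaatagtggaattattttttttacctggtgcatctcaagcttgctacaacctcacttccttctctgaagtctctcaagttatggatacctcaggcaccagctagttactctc
Abcb11, chr2:69342617-69342866, minus strand: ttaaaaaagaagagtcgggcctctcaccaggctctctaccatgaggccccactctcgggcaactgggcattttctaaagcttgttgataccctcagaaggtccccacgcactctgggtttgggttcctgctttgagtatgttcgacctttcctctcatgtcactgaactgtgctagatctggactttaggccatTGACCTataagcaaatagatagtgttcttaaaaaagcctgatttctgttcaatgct
Nr0b2, chr4:133553126-133553375, plus strand: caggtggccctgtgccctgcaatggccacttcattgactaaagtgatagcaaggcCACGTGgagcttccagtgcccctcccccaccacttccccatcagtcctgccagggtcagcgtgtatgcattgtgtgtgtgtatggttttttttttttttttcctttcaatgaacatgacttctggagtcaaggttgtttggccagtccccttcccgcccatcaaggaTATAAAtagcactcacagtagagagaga
Nr1h4, chr10:89506659-89506908, minus strand: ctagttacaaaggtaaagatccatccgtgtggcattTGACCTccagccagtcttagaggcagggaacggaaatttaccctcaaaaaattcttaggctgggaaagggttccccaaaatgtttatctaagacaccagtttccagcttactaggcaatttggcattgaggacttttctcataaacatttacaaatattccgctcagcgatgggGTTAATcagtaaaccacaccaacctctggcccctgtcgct

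The motifs were searched on both strands as exact letters, so copies with a changed base were not counted. They were the nuclear receptor hexamer AGGTCA, the inverted repeat of that hexamer with 1 base between the copies, the direct repeat with 1 base between them, the extended site CAAGGTCA, the HNF1 element GTTAAT, the E-box CACGTG, the D-box TTATGTAA and the TATA sequence TATAAA. The hexamer also lies inside the repeats and the extended site. AGGTCA or its reverse complement began at base -56 in the Abcb11 window and at base -214 in the Nr1h4 window, counted from the start site. It was also present at base -81 for Slco1b2 and at base -87 of the second RefSeq promoter of Slc10a1, which makes 4 members, and 14% of all 32851 RefSeq promoter windows held it. TATAAA began at base -31 for Cyp8b1, at base -28 for Nr0b2 and at bases -234 and -227 for Slco1b2. Its reverse complement began at base -128 for Slc10a1, which makes 4 members, against 12.4% of all windows with a match. The Nr0b2 window also held CACGTG at base -195, which 6.02% of windows held. The Nr1h4 window held GTTAAT at base -40 and the Slco1b2 window held it at base -66, against 6.43% of windows. No member window held an exact copy of the inverted repeat (0.00609% of all windows), the direct repeat (0.0335%), the extended site (1.33%) or the D-box (0.819%). In the Abcb11 window the match at base -56 follows the letters aggcca and 1 further base. That stretch is near the inverted repeat but not an exact copy of it. These matches describe the letters of the windows and show no binding.

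Library totals ran from 40.6 to 77.5 M counts in liver and from 52.9 to 77.1 M in kidney. The control libraries stood apart: mitochondrial genes took 69.3 to 72.2% of control liver counts, against 2.57 to 7.11% in treated livers, and 60.7 to 69.0% of control kidney counts, against 6.32 to 14.2% in treated kidneys. Control libraries therefore rest on 2.82 to 4.65 M counts outside the mitochondrial and nuclear-copy genes in liver and 5.05 to 10.1 M in kidney, and treatment and this difference in library make-up cannot be told apart. Among 9 hepatocyte markers the summed level was 45310 to 81950 CPM in treated livers and 14910 to 26710 CPM in control livers. Each of the 9 was detected in every arm. The sum mainly follows Alb, which averaged 17170 CPM in control and 53220 to 70110 CPM in treated livers on a scale common to both organs. On that scale Pck1 averaged 2513 CPM in control, 2384 CPM in cisplatin and 1425 CPM in CBLB502 livers. Tat averaged 957.6 CPM in control and 809.2 CPM in CBLB502 livers. The other markers had their lowest mean in control livers. CPM is the count per 1 M counts of the library, with the library size scaled by the trimmed mean of M values (TMM). In bulk tissue, fewer cells of a type and less RNA per cell cannot be told apart.

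Among cisplatin livers, library 3 also stood apart. Cdkn1a, a p53 target induced by DNA damage, had 211 to 246 CPM in combination livers and 423, 319 and 103 CPM in cisplatin libraries 1, 2 and 3, against 1.95 to 3.11 CPM in CBLB502 livers and 3.02 to 6.04 CPM in control livers. The summed level of 14 acute-phase genes was 22820 to 31410 CPM in combination livers, and 209700, 148200 and 26950 CPM in cisplatin libraries 1, 2 and 3. Library 3 was above libraries 1 and 2 for 10 of 10 members, by 1.52 to 119 times the higher of the other two. The share of all genes with this order is not given here, so the count does not set the members apart. Over all genes, combination against cisplatin livers called 648 of 17931 with library 3 and 4315 of 18531 without it. The summed level of 5 neutrophil markers was 0.0359 to 0.421 CPM in combination livers and 23.7, 31.4 and 1.84 CPM in cisplatin libraries 1, 2 and 3, with Mmp9 and Ly6g at 0 in the combination. For 6 Kupffer cell and macrophage markers it was 14.7 to 22.4 CPM in combination livers and 22.3, 18.6 and 93.8 CPM in cisplatin libraries 1, 2 and 3. The part that these cell types play in the split was not tested. Tests and ratios that involve cisplatin livers are given with and without library 3, and its part in them was tested only by leaving it out. Each library was left out in turn, but library 3 was singled out on these same data, the members among them. The p-values without it follow that choice and are a description.

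The classical enzymes showed the widest range of the set. In liver Cyp7a1 had 145, 33.4 and 93.2 CPM in combination libraries, 0.528, 0.687 and 81.8 CPM in cisplatin libraries, 31.0, 113 and 84.7 CPM in CBLB502 libraries, and 11.5, 11.5 and 0.704 CPM in control libraries. Cisplatin libraries 1 and 2 were below every combination and CBLB502 library, while library 3 lay among them. Cyp8b1 had 237, 83.1 and 206 CPM in combination libraries, 3.73, 2.16 and 190.5 CPM in cisplatin libraries, 129, 130.1 and 126 CPM in CBLB502 libraries, and 37.5, 82.2 and 34.0 CPM in control libraries. The same 2 cisplatin libraries were again lowest of all 12, and combination and CBLB502 livers overlapped.

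The alternative-route enzymes moved over a narrower range. Cyp27a1 had 335, 309 and 367 CPM in combination libraries, 122, 172 and 261 CPM in cisplatin libraries, 225, 239 and 188 CPM in CBLB502 libraries, and 198, 441 and 338 CPM in control libraries. All 3 combination libraries were above all cisplatin and all CBLB502 libraries, and within the control range. Cyp7b1 had 61.0, 40.8 and 70.4 CPM in combination libraries, 25.4, 18.3 and 43.6 CPM in cisplatin libraries, 76.7, 57.0 and 173 CPM in CBLB502 libraries, and 24.2, 26.2 and 25.0 CPM in control libraries. Combination and CBLB502 libraries all lay above the controls, and cisplatin libraries lay around them.

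Baat had another order than the other members. It had 215, 184 and 234 CPM in combination libraries, 235, 237 and 474 CPM in cisplatin libraries, 128, 133 and 119 CPM in CBLB502 libraries, and 70.2, 87.6 and 106 CPM in control libraries. The 4 groups did not overlap, and cisplatin livers were highest. Across the 9 treated liver libraries the median Pearson correlation of log2 CPM of Baat with the other members was -0.13, while the other members had medians of 0.70 to 0.94. Over all 45 pairs the median was 0.78, from -0.54 to 0.98. These libraries share 3 arms and the split within the cisplatin arm, so the values are a description.

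**Figure D1:**
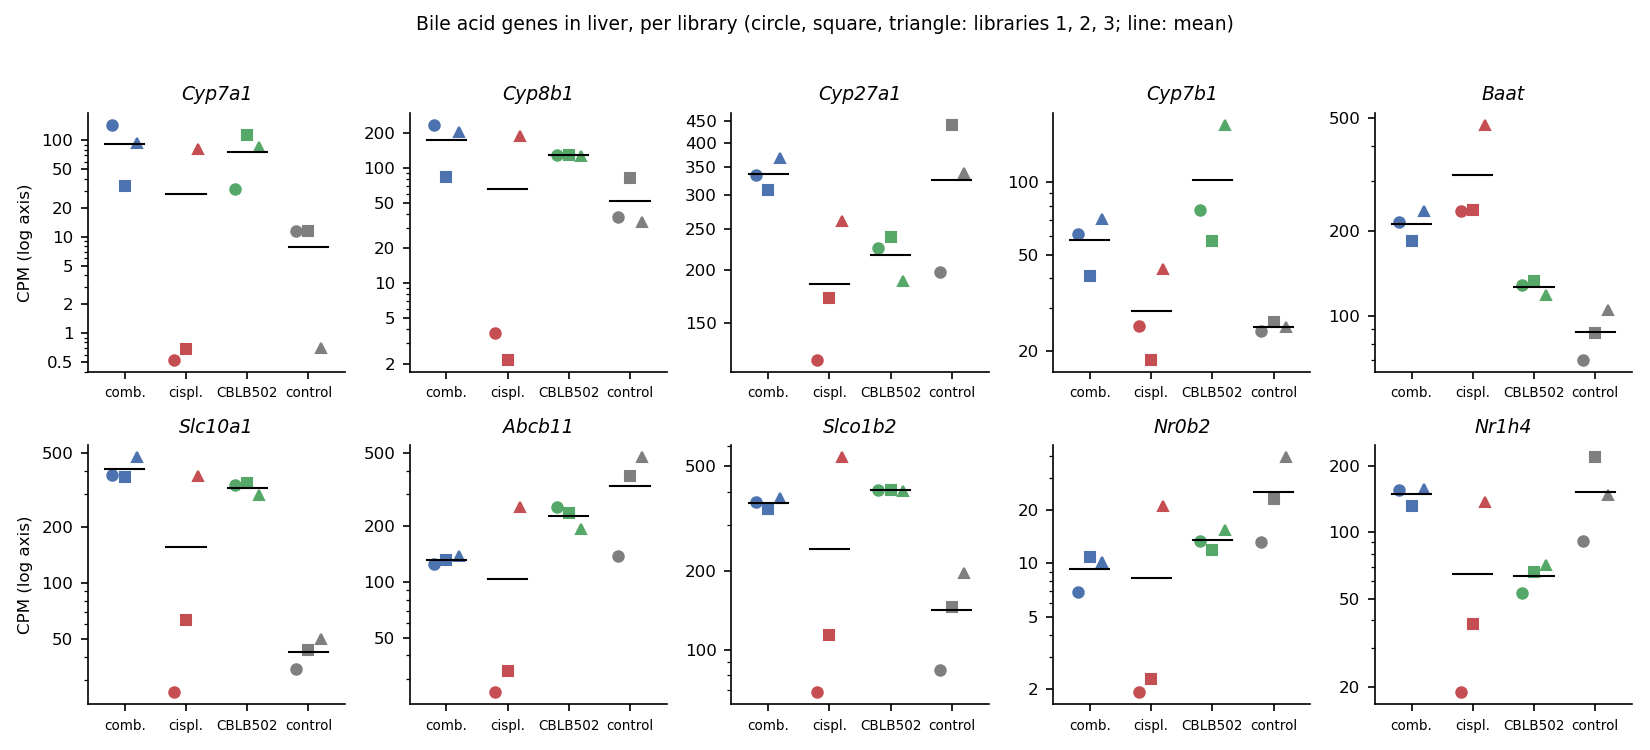
CPM (log axis) of the 10 members in each liver library, by arm from combination to control; each symbol is 1 library and each line an arm mean. In 9 of the 10 panels the circle and square of the cisplatin arm lie below every combination and CBLB502 library, and the triangle, library 3, lies above both. Baat is the exception. The share of all genes with this order is not given here.

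Both uptake carriers were high in combination and CBLB502 livers. Slc10a1 had 379, 370.0 and 474 CPM in combination libraries, 25.9, 63.6 and 376 CPM in cisplatin libraries, 334, 343 and 296 CPM in CBLB502 libraries, and 34.4, 43.9 and 50.1 CPM in control libraries. Cisplatin libraries 1 and 2 were near the controls, and library 3 near the combination. Slco1b2 had 366, 345 and 378 CPM in combination libraries, 68.9, 114 and 543 CPM in cisplatin libraries, 406, 407 and 402 CPM in CBLB502 libraries, and 84.1, 146 and 197 CPM in control libraries. Here library 3 of the cisplatin arm was the highest of all 12.

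The export pump had another order. Abcb11 had 125, 132 and 138.2 CPM in combination libraries, 25.3, 33.1 and 253 CPM in cisplatin libraries, 253, 237 and 192 CPM in CBLB502 libraries, and 138.5, 374 and 474 CPM in control libraries. Every combination library lay below every CBLB502 library and below the lowest control.

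The nuclear receptors split in the same way in the cisplatin arm. Nr1h4 had 156, 132 and 158 CPM in combination libraries, 18.9, 38.5 and 138 CPM in cisplatin libraries, 53.0, 65.9 and 71.4 CPM in CBLB502 libraries, and 91.7, 219 and 147 CPM in control libraries. Combination libraries were all above CBLB502 libraries, which were all below the controls. Nr0b2 had 6.93, 10.9 and 10.2 CPM in combination libraries, 1.91, 2.26 and 20.9 CPM in cisplatin libraries, 13.3, 11.9 and 15.3 CPM in CBLB502 libraries, and 13.1, 22.9 and 39.4 CPM in control libraries. Its combination libraries lay below all CBLB502 and all control libraries.

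Combination was first set against cisplatin, the comparison that asks what CBLB502 given before the drug does to these genes. With all libraries, 0 of 10 members passed edgeR's quasi-likelihood test at a Benjamini-Hochberg adjusted p under 0.05, where 3.61% of all 17931 genes did; 2 members had an unadjusted p under 0.05, DESeq2 called 0 and limma on log2(FPKM + 1) called 1. The median log2 fold change of the members was 0.92, against 0.01 over all genes. Without cisplatin library 3, 9 of 10 members were higher in the combination, where 12.6% of all genes were called higher, and the median of the members was 2.18. Library 3 had the highest cisplatin level of every member, so leaving it out raises these differences by construction. Baat was the member not called, at -0.15 ± 0.20 (log2, SE; adjusted p = 0.667). By single libraries, Cyp27a1 was the 1 member whose combination libraries were all above all 3 cisplatin libraries (15.7% of all genes), and Baat the 1 member whose were all below (12.9%).

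The size of these differences depended on that library most for the classical enzymes. Cyp7a1 had a log2 fold change of 1.71 ± 1.49 (SE; adjusted p = 0.573) with all libraries and 7.23 ± 1.14 (adjusted p = 0.00102) without library 3. For Cyp8b1 the values were 1.42 ± 1.21 (adjusted p = 0.561) and 5.91 ± 0.60 (adjusted p = 8.4e-05). Slc10a1 had 1.39 ± 0.70 (adjusted p = 0.287) with all libraries and 3.20 ± 0.36 (adjusted p = 0.000154) without library 3. The smallest called value without library 3 was that of Cyp27a1, with 0.86 ± 0.33 (adjusted p = 0.160) with all libraries and 1.21 ± 0.31 (adjusted p = 0.0151). Without library 3 the other called members lay between 1.41 for Cyp7b1 and 2.38 for Nr1h4. Leaving out any other single library of these groups gave 0 called members.

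**Figure D2:**
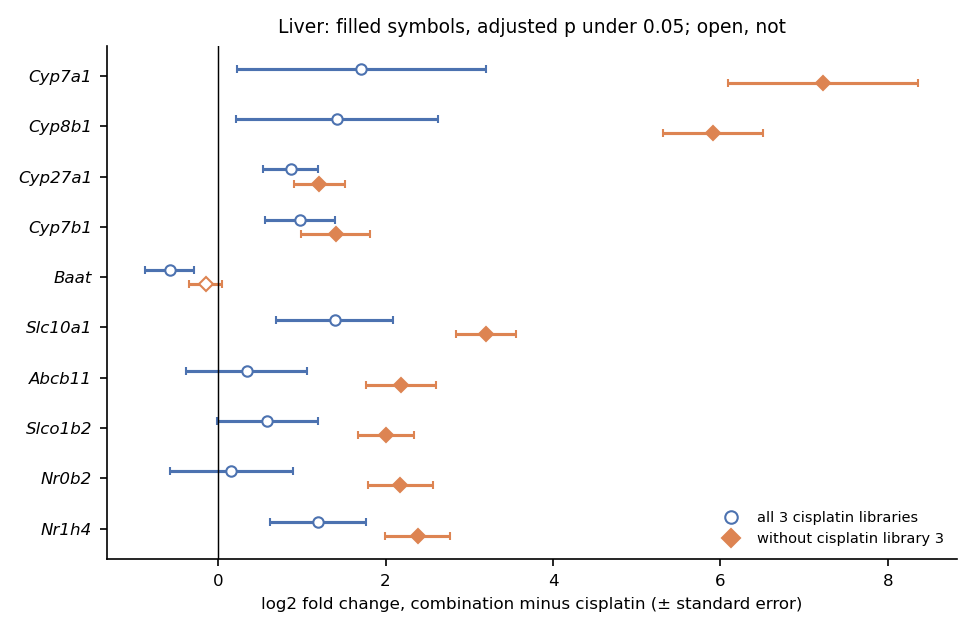
Log2 fold change of combination over cisplatin in liver with its standard error, for all 3 cisplatin libraries (circles) and without library 3 (diamonds); filled symbols passed the adjusted threshold. All circles are open, and all diamonds are filled and right of 0 apart from that of Baat.

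Cisplatin livers were compared with CBLB502 livers next. Of 10 members, 1 was higher and 1 lower, where 12.5% of all genes were called either way. Baat was higher in cisplatin livers by 1.32 ± 0.29 on the log2 scale (adjusted p = 0.0149), and Cyp7b1 was lower, at -1.81 ± 0.42 (adjusted p = 0.0186). The Baat call was lost without any 1 of the CBLB502 libraries (adjusted p = 0.0651 to 0.0767). The Cyp7b1 call was lost without cisplatin library 1 (0.0704) or 2 (0.0805) or without CBLB502 library 3 (0.0829). Without cisplatin library 3, 1 member was higher and 8 lower, where 29.7% of genes were called either way. In that fit Cyp7a1 had a log2 fold change of -6.97 ± 1.12 (adjusted p = 0.000822) and Cyp8b1 one of -5.46 ± 0.59 (adjusted p = 6.2e-05). Nr0b2 had -2.70 ± 0.40 (adjusted p = 0.000477), and Cyp27a1, at -0.57 ± 0.30 (adjusted p = 0.178), was not called.

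Combination against CBLB502, the arms that differ by the cisplatin dose, gave 0 called members, where 6.61% of all genes were called. One member had an unadjusted p under 0.05, and DESeq2 and limma each called 0. The groups still separated by single libraries for 7 members: 4 were higher in every combination library (25.1% of all genes) and 3 lower (22.2%). The higher ones were Nr1h4 at 1.23 ± 0.57 on the log2 scale (adjusted p = 0.266), Baat at 0.74 ± 0.29 (adjusted p = 0.170), Cyp27a1 at 0.63 ± 0.33 (adjusted p = 0.328) and Slc10a1 at 0.33 ± 0.69 (adjusted p = 0.894). The lower ones were Abcb11 at -0.79 ± 0.73 (adjusted p = 0.667), Nr0b2 at -0.53 ± 0.74 (adjusted p = 0.812) and Slco1b2 at -0.16 ± 0.60 (adjusted p = 0.951). The standard errors are those of a fit that holds the cisplatin arm as well. With only these 2 groups in the fit, 5 members were called, and its share over all genes is not given here.

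The ratio of 1 uptake carrier, Slc10a1, to the export carrier was taken within each liver library from the deposited FPKM. This measure was added after the data were seen. The ratio of Slc10a1 to Abcb11 was 7.08, 6.58 and 8.02 in combination livers, 2.40, 4.50 and 3.48 in cisplatin livers, 3.08, 3.38 and 3.602 in CBLB502 livers, and 0.580, 0.274 and 0.247 in control livers. Combination livers were above all others and did not overlap them, and cisplatin library 3 lay between libraries 1 and 2. Means were 7.23 ± 0.735 in combination and 3.46 ± 1.05 in cisplatin livers (SD, n = 3 each), a log2 difference of 1.11 (two-sided exact permutation p = 0.1, the smallest that 3 against 3 allows; adjusted over 12 comparisons 0.171). The log2 difference was 1.13 without cisplatin library 3 (exact permutation p = 0.2, the smallest that 3 against 2 allows). Against CBLB502 livers, with 3.36 ± 0.260 (SD, n = 3), the log2 difference was 1.10 (exact permutation p = 0.1, adjusted 0.171). Slco1b2, the other uptake carrier, had 104.9, 92.41 and 103.5 FPKM in combination and 13.85, 24.14 and 146.3 FPKM in cisplatin livers. Abcb11 had 34.32, 33.76 and 36.23 FPKM and 4.871, 6.723 and 65.37 FPKM in the same libraries. On these values Slco1b2 over Abcb11 overlaps between the arms, so the separation from cisplatin livers holds for Slc10a1 only.

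The balance of the classical over the alternative enzymes behaved otherwise. The summed FPKM of Cyp7a1 and Cyp8b1 over that of Cyp27a1 and Cyp7b1 was 0.857, 0.315 and 0.636 in combination livers, 0.0299, 0.0145 and 0.837 in cisplatin livers, 0.530, 0.688 and 0.511 in CBLB502 livers, and 0.215, 0.209 and 0.105 in control livers. Combination and cisplatin livers overlapped through cisplatin library 3 (log2 difference 2.96, two-sided exact permutation p = 0.3). They did not overlap once that library was left out, with a log2 difference of 4.74 (exact permutation p = 0.2, the smallest that 3 against 2 allows). Combination and CBLB502 livers also overlapped, with a log2 difference of -0.04 (exact permutation p = 0.9).

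**Figure D3:**
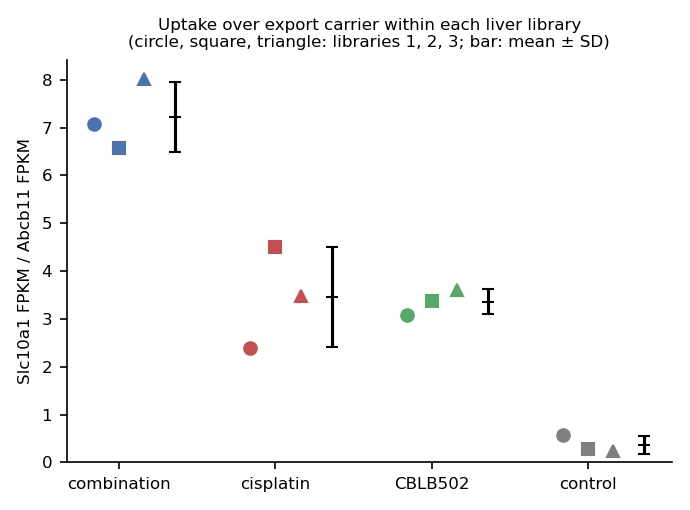
Ratio of Slc10a1 to Abcb11 FPKM in each liver library by arm, with the mean ± SD of 3 libraries beside the points. The 3 combination libraries sit between 6.58 and 8.02, above the 3 cisplatin libraries at 2.40 to 4.50, and the control libraries are below 0.580 or at it.

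Comparisons with the control livers carry the difference in library make-up described above. Cisplatin livers had 1 of 10 members called higher, where 25.5% of all genes were, namely Baat at 1.85 ± 0.30 on the log2 scale (adjusted p = 0.000493). CBLB502 livers had 2 called higher (18.3% of genes): Cyp7b1 at 2.02 ± 0.43 (adjusted p = 0.00488) and Slc10a1 at 2.92 ± 0.74 (adjusted p = 0.0127). Combination livers had 3 called higher (23.8% of genes): Slc10a1 at 3.25 ± 0.75 (adjusted p = 0.00549), Baat at 1.27 ± 0.29 (adjusted p = 0.00537) and Cyp7b1 at 1.19 ± 0.42 (adjusted p = 0.0413). The last call was lost without combination library 1 (0.0853) or 3 (0.111) or any 1 control library (0.0820 to 0.0910). It was also lost with RLE size factors (0.118), DESeq2 (0.0875) and the mitochondrial genes left out (0.0591). With 1, 2 and 3 of 10 members called, the counts set the members little apart from all genes. In these fits no member was called lower, but other settings did call some. DESeq2 called 1 higher and 4 lower for cisplatin, 1 higher and 2 lower for CBLB502 and 1 higher and 2 lower for the combination, and it gave no adjusted p for Slc10a1. In edgeR, cisplatin had 1 member lower with RLE size factors, Cyp27a1 at -1.05 (adjusted p = 0.0203), and 2 lower with a replicate block, Abcb11 and Nr0b2. With only the 2 groups in the fit, 1 member was lower for CBLB502 and 2 for the combination. RLE called 3763 of 17931 genes lower for cisplatin, and for the other settings the share over all genes is not given here.

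Once cisplatin library 3 was left out, 1 member was higher and 6 were lower in cisplatin livers than in controls, where 46.6% of all genes were called either way. Cyp7a1 was at -3.68 ± 0.99 on the log2 scale (adjusted p = 0.00977) and Cyp8b1 at -4.10 ± 0.55 (adjusted p = 9.4e-05), both positive with all libraries, at 1.81 and 0.35. Abcb11 was at -3.47 ± 0.45 (adjusted p = 7.3e-05), Nr0b2 at -3.56 ± 0.42 (adjusted p = 3.8e-05) and Nr1h4 at -2.38 ± 0.39 (adjusted p = 0.000384). Cyp27a1 was at -1.12 ± 0.31 (adjusted p = 0.0106), and it was also called lower without control library 1, at -1.06 (adjusted p = 0.0186). Slc10a1 was called higher in cisplatin livers without cisplatin library 1, at 2.37 (adjusted p = 0.00584), or without library 2, at 2.28 (adjusted p = 0.0339). Levels read from the deposited FPKM, which divide by totals that are mostly mitochondrial in controls, moved the median log2 difference against the controls over 10235 genes, those tested on both scales, by 1.13 for the combination, 0.86 for cisplatin and 1.37 for CBLB502. Between treated arms that shift was 0.23 for combination over cisplatin, -0.47 for cisplatin over CBLB502 and -0.245 for combination over CBLB502. On that scale limma called 8850 of 10270 genes above the controls for cisplatin, 9748 for CBLB502 and 9384 for the combination. Cyp27a1 was among them in cisplatin livers and Nr1h4 in combination livers, of opposite sign to the count-based values. So were Cyp27a1, Abcb11, Nr0b2 and Nr1h4 in CBLB502 livers. The sign was also opposite, with no call on either scale, for Abcb11 (1.52) and Nr0b2 (1.24) in combination livers and for Abcb11 (0.22), Nr0b2 (0.22) and Nr1h4 (0.82) in cisplatin livers.

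The interaction asks whether the change with cisplatin differs with CBLB502 before it. It called 1 member, Cyp27a1, at 1.45 ± 0.47 on the log2 scale (adjusted p = 0.0453), where 7.2% of all genes were called positive. Nr1h4 came close with 2.46 ± 0.81 (adjusted p = 0.0503). The Cyp27a1 call was lost with a replicate block (adjusted p = 0.0510, with Nr1h4 called instead at 2.75, adjusted p = 0.0292), with no filter on low counts, with the mitochondrial genes left out, and without any 1 of 10 libraries (adjusted p = 0.0844 to 0.125), and it was kept without cisplatin library 3 or control library 1. On the FPKM scale, where the median of the 10235 shared genes moved by -1.08, its value was -1.28 (adjusted p = 0.0582). Without cisplatin library 3, 6 members were positive, where 11.9% of genes were, with Cyp8b1 at 4.55 ± 0.66 (adjusted p = 0.000378), Nr1h4 at 3.62 ± 0.50 (adjusted p = 0.000281) and Nr0b2 at 3.04 ± 0.50 (adjusted p = 0.000888).

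Levels per transcript length put Slc10a1 and Cyp27a1 at the top in treated livers other than cisplatin. Mean FPKM of Slc10a1 was 252 ± 35.2 in combination livers and 244 ± 18.9 in CBLB502 livers (SD, n = 3 each). Cyp27a1 followed with 211 ± 21.0 FPKM in combination livers, a range that overlapped that of Slc10a1, and 166 ± 20.1 FPKM in CBLB502 livers, which did not. In cisplatin livers Baat came first with 191 ± 116 FPKM, and every member's range overlapped that of its neighbour in the order. Nr0b2 was last in combination livers with 11.1 ± 2.19 FPKM and in CBLB502 livers with 19.7 ± 2.50 FPKM, while Cyp7a1 was last in cisplatin livers with 8.78 ± 14.9 FPKM and in control livers with 0.390 ± 0.319 FPKM. Cyp27a1 was first in control livers, at 30.9 ± 15.4 FPKM.

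The other genes of the pathway were taken from lists chosen with earlier results of these data known. In combination against cisplatin livers, 1 of 16 other synthesis enzymes was called, and no gene among 17 other carriers and 16 other regulators by edgeR, where 3.61% of all genes were. The called gene was Cyp2c70, the enzyme that makes muricholic acids in mice, with 293 CPM in combination and 864 CPM in cisplatin livers, at -1.56 ± 0.36 on the log2 scale (adjusted p = 0.0404). Without cisplatin library 3, 7 other synthesis enzymes were higher and 1 lower, 7 carriers were higher and 5 regulators were higher, where 12.6% of all genes were higher and 10.7% lower, with list medians of 0.89, 0.33 and 0.50 against 0.06 over all genes. Chosen after their values were seen, the largest of these were Akr1d1, a steroid reductase of bile acid synthesis, at 4.90 ± 0.52 (adjusted p = 0.000112), and the carrier Slco1a4 at 4.77 ± 0.52 (adjusted p = 0.000125).

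A few of these genes were called in both pairs of arms that differ by cisplatin. Cyp39a1, an oxysterol hydroxylase, averaged 79.2 CPM in combination livers, against 9.46 CPM in CBLB502 livers, at 3.07 ± 0.46 on the log2 scale (adjusted p = 0.00298), and it averaged 60.0 CPM in cisplatin livers, against 1.999 CPM in control livers. Ephx1, an epoxide hydrolase that has been linked to bile acid uptake, averaged 398 CPM in combination livers, against 140 CPM in CBLB502 livers, at 1.51 ± 0.29 (adjusted p = 0.0104). Cebpb, a transcription factor of the acute-phase response, averaged 64.7 CPM in combination livers, against 22.3 CPM in CBLB502 livers, at 1.53 ± 0.42 (adjusted p = 0.0499). Over each list, combination against CBLB502 livers called 1 gene higher and 0 lower, where 6.61% of all genes were called. Slc10a2, the sodium-dependent bile acid transporter of bile duct and ileum, averaged 18.5 CPM in combination, 24.1 CPM in cisplatin and 7.25 CPM in CBLB502 livers, against 1.19 CPM in control livers, and was called higher in each of these 3 arms. The summed level of 8 cholangiocyte markers was 69.7, 93.5 and 28.9 CPM in cisplatin libraries 1, 2 and 3. It was 28.9 to 40.8 CPM in combination livers, 30.6 to 66.2 CPM in CBLB502 livers and 21.8 to 44.0 CPM in control livers, with Epcam and Tspan8 at 0 in the controls. The part it plays was not tested.

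The D-box factor Dbp, an output of the circadian clock, had 12.1, 6.74 and 11.2 CPM in combination libraries, 0.168, 0.415 and 6.65 CPM in cisplatin libraries, 38.4, 57.8 and 57.0 CPM in CBLB502 libraries, and 1.92, 0 and 0 CPM in control libraries. The summed level of the 14 clock genes measured was 362 to 384 CPM in combination livers and 258, 324 and 293 CPM in cisplatin libraries 1, 2 and 3. It was 275 to 355 CPM in CBLB502 livers and 96.7 to 138 CPM in control livers. Cisplatin library 3 lay between libraries 1 and 2 in this sum but above both for Dbp. A sum can hide genes that move in opposite directions, so it does not describe the clock state of a library. Clock times are not given, and the part that time of day plays was not tested. The genes whose log2 CPM over the 9 treated liver libraries was most like a member's were named by Pearson's r among 7628 genes. For Cyp7a1 they included Npr2 (r = 0.997), Fahd1, Fads6 and Slc46a3 (0.984 to 0.990 for the last 3). For the other members the closest gene was Acss3 for Cyp8b1, Rhot1 for Cyp27a1, Polr3e for Cyp7b1, Crls1 for Baat, Faah for Slc10a1, Cyp2j5 for Abcb11, Galm for Slco1b2, Eva1a for Nr0b2 and Mtus1 for Nr1h4, with r from 0.950 to 0.998.

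In kidney, 6 members were near the floor of detection and had a low share of their liver level. Nr0b2 was also near the floor, with arm means of 0.691 to 1.20 CPM. Its liver means were low as well, at 8.35 to 25.1 CPM, so its share of liver is larger. Kidney mean CPM as a percent of the liver mean, on a common scale over all 24 libraries, was 0.0539 to 0.116% for Abcb11 in the 3 treated arms, 0.0643 to 0.135% for Cyp8b1, 0.0761 to 0.216% for Cyp7a1, 0.0721 to 0.182% for Slc10a1, 0.0775 to 0.123% for Slco1b2 and 0.212 to 0.314% for Baat. Of 9 hepatocyte markers, 5 gave like shares: 0.0917 to 0.121% for Alb, 0.0797 to 0.117% for Tat, 0.116 to 0.179% for Asgr1, 0.112 to 0.139% for Apoa1 and 0.0772 to 0.189% for Cps1. The other 4 were higher, with 0.892 to 1.14% for Ttr, 2.31 to 2.86% for Apob, 28.7 to 75.9% for Hnf4a and 45.2 to 99.6% for Pck1. The part that liver RNA in the kidney libraries plays in the low values was not tested. Of the other 4 members, Nr0b2 reached 3.19 to 6.55% of its liver level, Cyp27a1 5.51 to 10.8%, Nr1h4 54.4 to 95.3% and Cyp7b1 43.2 to 151%. In the cisplatin arm these shares rest on the liver mean that library 3 raises. Against cisplatin liver libraries 1 and 2 alone, the kidney share in that arm was 9.96% for Cyp7a1, 3.04% for Cyp8b1, 0.542% for Slc10a1, 0.356% for Abcb11 and 0.328% for Slco1b2, and 0.285% for Baat. It was 18.7% for Nr0b2, 12.8% for Cyp27a1, 218% for Nr1h4 and 202% for Cyp7b1, and among the 5 low markers it ran from 0.0688% for Tat to 0.310% for Cps1.

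**Figure D4:**
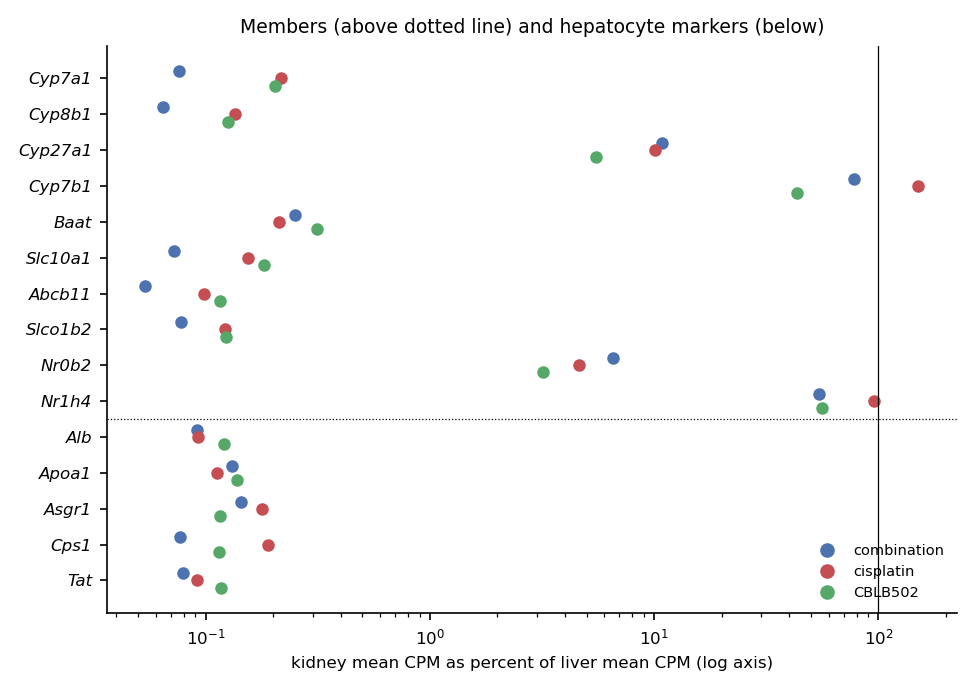
Mean kidney CPM as a percent of mean liver CPM (log axis) in the 3 treated arms for the 10 members and, below the dotted line, 5 of the 9 hepatocyte markers; the vertical line marks 100%. Abcb11, Cyp8b1, Slco1b2, Slc10a1, Cyp7a1 and Baat lie at 0.0539 to 0.314%, beside the markers, and Cyp27a1, Nr0b2, Nr1h4 and Cyp7b1 lie to the right.

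Set against liver in a fit of all 24 libraries, 8 of 10 members were lower in kidney in the combination arm (17.2% of all genes were lower), 8 in the cisplatin arm (15.4%), 8 in the CBLB502 arm (13.3%) and 10 in the control arm (16.7%). Cyp7b1 and Nr1h4 were the members not called in the treated arms. Nr1h4 differed by -0.88 ± 0.48 on the log2 scale in the combination arm (adjusted p = 0.152) and by -0.07 ± 0.47 in the cisplatin arm (adjusted p = 0.943). Without cisplatin liver library 3, and with all cisplatin kidney libraries kept, 8 members were again lower in kidney in the cisplatin arm (14.2% of all genes). In that fit Nr1h4 was called higher in kidney, at 1.13 ± 0.36 (adjusted p = 0.0210). In the control arm Cyp7b1 was lower in kidney by 2.93 times, at -1.55 ± 0.48 (adjusted p = 0.0166), and Nr1h4 by 3.95 times, at -1.98 ± 0.49 (adjusted p = 0.00388).

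Cyp27a1 and Nr1h4 separated the kidney arms. Cyp27a1 had 62.3, 78.6 and 74.7 CPM in combination kidneys, 43.5, 34.1 and 37.1 CPM in cisplatin kidneys, 20.5, 21.8 and 25.3 CPM in CBLB502 kidneys, and 25.1, 20.6 and 29.3 CPM in control kidneys. The combination, the cisplatin and the CBLB502 libraries did not overlap, in that order from high to low. Nr1h4 had 144, 171 and 161 CPM in combination kidneys, 155, 122 and 105 CPM in cisplatin kidneys, 39.8, 86.6 and 74.3 CPM in CBLB502 kidneys, and 62.9, 87.1 and 96.1 CPM in control kidneys. Both arms with cisplatin were above both arms without it in every library. The summed level of 9 hepatocyte markers, some of which tubule cells also express, was 5584 to 6976 CPM in combination, 2287 to 3303 CPM in cisplatin, 1328 to 1992 CPM in CBLB502 and 1052 to 1348 CPM in control kidneys, with Asgr1 at 0 in the controls. This sum mainly follows Pck1, which averaged 3956, 1637, 644 and 569 CPM in these arms on the common scale of both organs. The next highest mean of a marker there was 331 CPM, that of Hnf4a in CBLB502 kidneys. The part of these markers in the differences was not tested.

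Combination against CBLB502 kidneys called both genes higher, 2 of 10 members where 14.9% of all genes were higher. Cyp27a1 differed by 1.68 ± 0.17 on the log2 scale (adjusted p = 0.000133) and Nr1h4 by 1.25 ± 0.27 (adjusted p = 0.00609). Cisplatin against CBLB502 kidneys called the same 2 members higher (18.5% of all genes), Cyp27a1 at 0.77 ± 0.17 (adjusted p = 0.00587) and Nr1h4 at 0.93 ± 0.27 (adjusted p = 0.0233); these comparisons share the CBLB502 libraries. The Nr1h4 call against CBLB502 was lost without cisplatin library 4 (0.0886) or 5 (0.0520) or CBLB502 library 4 (0.0730).

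In combination against cisplatin kidneys 0 of 10 members were called, where 0.00492% of all 20341 genes were. Cyp27a1 had a log2 fold change of 0.91 ± 0.17 and was the 1 member with an unadjusted p under 0.05 (0.000151; adjusted p = 0.230), and DESeq2 called 1 of the 3 members for which it gave an adjusted p. Without cisplatin library 6 it was called, at 0.89 ± 0.18 (adjusted p = 0.00335), as were 12% of all genes in the higher direction. That library had 74.3 CPM of Cdkn1a, against 626 and 600.2 CPM in cisplatin libraries 4 and 5, so it too stood apart in its arm, and its part was tested only by leaving it out. The Cyp27a1 value itself hardly moved.

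**Figure D5:**
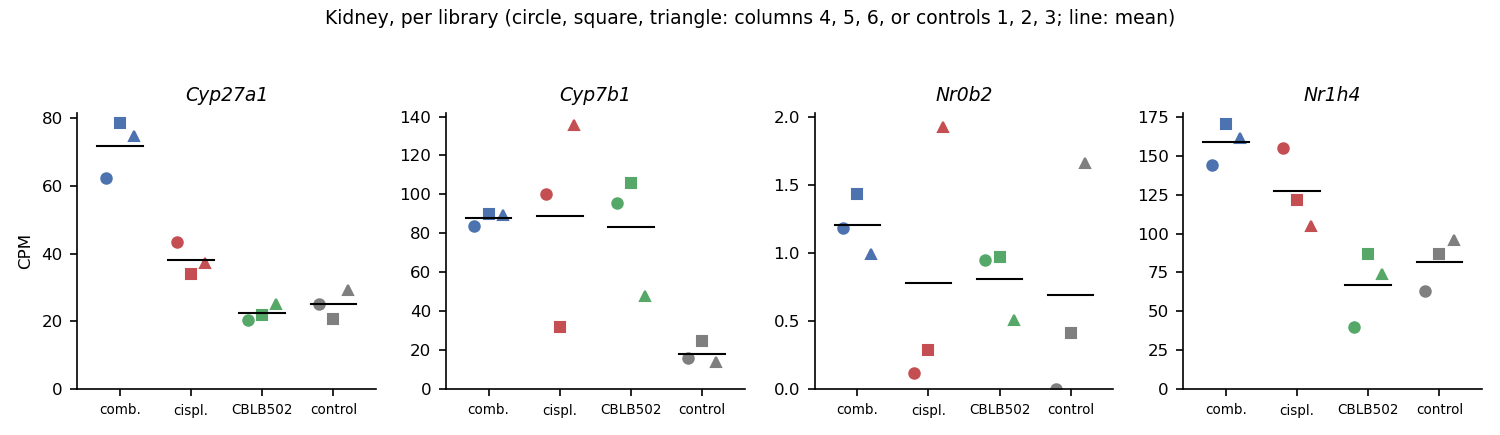
CPM in each kidney library for Cyp27a1, Cyp7b1, Nr0b2 and Nr1h4, by arm from combination to control; symbols are libraries and lines are arm means. Cyp27a1 lies at 62.3 to 78.6 CPM in combination kidneys and at 20.5 to 25.3 CPM in CBLB502 kidneys, and Nr1h4 is above 100 CPM in all 6 kidneys given cisplatin.

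Cyp7b1 and Nr0b2 varied more between kidney libraries. Cyp7b1 had 83.8, 89.7 and 89.4 CPM in combination kidneys, 100.2, 31.6 and 136 CPM in cisplatin kidneys, 95.5, 106 and 47.8 CPM in CBLB502 kidneys, and 16.1, 24.6 and 13.8 CPM in control kidneys. Every treated library was above every control, and the treated arms overlapped. Nr0b2 had 1.18, 1.44 and 0.989 CPM in combination kidneys, 0.119, 0.285 and 1.93 CPM in cisplatin kidneys, 0.949, 0.969 and 0.503 CPM in CBLB502 kidneys, and 0, 0.410 and 1.66 CPM in control kidneys. Cisplatin library 6 was the highest and library 4 the lowest of the treated kidneys. These Nr0b2 values rest on few reads, with 11 and 25 counts in cisplatin libraries 4 and 5 and 0, 10 and 32 counts in control kidneys.

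Against control kidneys, cisplatin called 4 members higher (24.1% of all genes), CBLB502 called 3 (11.4%) and the combination 5 (21.4%). Cyp7b1 was called in all of them, at 2.29 ± 0.47 on the log2 scale for cisplatin (adjusted p = 0.00273), 2.19 ± 0.46 for CBLB502 (adjusted p = 0.00759) and 2.27 ± 0.47 for the combination (adjusted p = 0.00298). Cyp27a1 was called for cisplatin at 0.61 ± 0.17 (adjusted p = 0.0126) and for the combination at 1.52 ± 0.17 (adjusted p = 4.8e-05). Nr1h4 was called for the combination at 0.95 ± 0.27 (adjusted p = 0.0156), a call lost without control library 1 (0.0600). Cyp8b1 and Abcb11 were also called in all 3 comparisons, but both were at 0 counts in every control kidney. Against a floor of 3 counts over the control group, Abcb11 was at least 2.57 times higher in combination, 3.90 times in cisplatin and 9.13 times in CBLB502 kidneys, with 6 to 51 counts per treated library. The Cyp8b1 call was lost without control library 2 (0.0529 for cisplatin, 0.0530 for CBLB502), cisplatin library 5 (0.0551), CBLB502 library 6 (0.0559), control library 3 (0.0557 for CBLB502) or combination library 4 (0.0507). The Abcb11 call for the combination was lost without combination library 4 (0.0525). Slco1b2, with counts in 1 control kidney, was called higher in all 3 comparisons once that library, number 3, was left out.

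The change between arms was also compared between the organs, by the interaction of organ and arm in the fit of all 24 libraries. For cisplatin over control 4 members differed (14.4% of all genes), 3 with a higher change in kidney and 1 with a lower one. Cyp27a1 differed by 1.48 ± 0.39 on the log2 scale (adjusted p = 0.0135), Cyp7b1 by 2.14 ± 0.66 (adjusted p = 0.0350) and Baat by -1.31 ± 0.40 (adjusted p = 0.0325); Abcb11, at 0 in control kidney, was the fourth. For CBLB502 over control 1 member differed, Abcb11 (3.8% of genes higher), and for the combination over control 1, Cyp27a1 at 1.59 ± 0.39 (adjusted p = 0.00958; 7.79% of genes higher). No member was called for a difference between organs in combination over cisplatin (0.974% of genes), cisplatin over CBLB502 (2.28%) or combination over CBLB502 (7.17%), where 0, 2 and 1 members had an unadjusted p under 0.05 in edgeR, the tool used for this test. Without cisplatin liver library 3, a fit added after the data were seen, 7 members differed for cisplatin over control, all with a higher change in kidney (19.3% of genes either way). Of these, Abcb11, Cyp7a1 and Cyp8b1 were at 0 counts in every control kidney. In that fit Cyp27a1 was at 1.83 ± 0.36 (adjusted p = 0.00127) and Cyp7b1 at 2.57 ± 0.68 (adjusted p = 0.0120), while Baat, at -0.87 ± 0.33, was no longer called (adjusted p = 0.0676). Combination over cisplatin then differed for 5 members, all with a lower change in kidney (7.35% of genes either way), and cisplatin over CBLB502 for 5, all with a higher one (8.95%). That fit kept cisplatin kidney library 6, which also stood apart, so only the liver arm lost its divergent library. Within kidney, combination against cisplatin called 1 of 20341 genes with library 6 and 4701 of 20954 without it.

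Among the other pathway genes of kidney, combination over CBLB502 called 3 higher and 1 lower of 16 synthesis enzymes, 3 higher and 1 lower of 17 carriers and 4 higher of 16 regulators, where 14.9% of all genes were higher and 8.96% lower. Ephx1 averaged 128 CPM in combination kidneys, against 26.3 CPM in CBLB502 kidneys, at 2.29 ± 0.33 on the log2 scale (adjusted p = 0.000614). Slc51b, a subunit of the basolateral bile acid exporter, averaged 32.8 CPM in combination kidneys, against 11.5 CPM in CBLB502 kidneys, at 1.51 ± 0.27 (adjusted p = 0.00217). Cebpb averaged 41.9 CPM in combination kidneys, against 6.02 CPM in CBLB502 kidneys, at 2.80 ± 0.51 (adjusted p = 0.00268). Nr1h3, the oxysterol receptor LXRα, averaged 57.8 CPM in combination kidneys, against 23.9 CPM in CBLB502 kidneys, at 1.28 ± 0.19 (adjusted p = 0.000782). Acot8, a peroxisomal thioesterase, averaged 42.3 CPM in combination kidneys, against 13.9 CPM in CBLB502 kidneys, at 1.60 ± 0.31 (adjusted p = 0.00348). Cyp46a1, a cholesterol hydroxylase, was lower, with 0.620 CPM in combination kidneys, against 1.69 CPM in CBLB502 kidneys, at -1.44 ± 0.42 (adjusted p = 0.0279).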

How the data were processed

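The members and the gene lists were chosen with earlier results of these data known. The authors deposited gene-level read counts for 24 libraries and FPKM for 15 of them that could be tied to a sample; 9 FPKM columns were not used. The authors trimmed reads with cutadapt 1.9 and checked them with FastQC, per the submitters' processing notes; aligner, counter, build and strand setting are not given in the sources used here. Treated kidney columns carry numbers 4 to 6 and were tied to their group by name.

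Counts of 12 libraries per organ were fitted together with edgeR 4.0.16 (quasi-likelihood test, TMM scaling, filterByExpr) in R 4.3.3, and p-values were Benjamini-Hochberg adjusted over all 17931 liver or 20341 kidney genes, with a threshold of 0.05. Organs were compared in a fit of 24 libraries (21570 genes). Kidney FPKM was computed from counts and the length implied by the deposited FPKM. On a log2 scale, limma 3.58.1 was run on the deposited FPKM plus a pseudocount of 1. Alternatives were DESeq2 1.42.0, other size factors, no filter, mitochondrial genes left out, fewer groups, a replicate block and 1 library left out; the organ comparisons without cisplatin liver library 3 were chosen after seeing the data. The code was tested on simulated data. All 10 members were described; from each other list, up to 4 genes per comparison were named, taking called genes with separate groups and the largest changes first. For groups at 0, the floor was 3 counts over the group and covers counting error only. One gene among those most like Cyp7a1 is not reported here.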

Additional observations from a re-analysis of the deposited data

Results flagged for a closer look

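Changes that differed between arms or organs by a test of the difference itself are collected here with their values. In liver, the change of Cyp27a1 with cisplatin differed with CBLB502 before it by 1.45 on the log2 scale. Between kidney and liver, the cisplatin-over-control change differed by 1.48 for Cyp27a1, 2.14 for Cyp7b1 and -1.31 for Baat, and the combination-over-control change differed by 1.59 for Cyp27a1. Without cisplatin liver library 3 the cisplatin values were 1.83 for Cyp27a1, 2.57 for Cyp7b1 and -0.87 for Baat, and that of Baat was no longer called (adjusted p = 0.0676). All 5 values involve the control libraries, which differ from treated libraries in their mitochondrial share, and treatment and library make-up cannot be told apart.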

How the results depend on the processing

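Counts of called members are given as the alternative's value, with the value of the fit as reported in parentheses. In liver, cisplatin over control (1) gave 2 with other size factors (RLE), 5 with DESeq2, 3 with a replicate block and 5 with limma on FPKM. CBLB502 over control (2) gave 6 with only the 2 groups and 10 with limma, and combination over control (3) gave 8 with each. Of the 10270 genes it tested, limma called 8974 for cisplatin, 9811 for CBLB502 and 9521 for the combination over control. These limma counts of members therefore do not set them apart from all genes. Combination over cisplatin (0) gave 1 with limma. Cisplatin over CBLB502 (2) gave 0 with only the 2 groups and 6 with limma, and combination over CBLB502 (0) gave 5 with only the 2 groups. The interaction (1) gave 2 with RLE or DESeq2, 0 with no filter or without mitochondrial genes, and 4 with limma. Over all genes limma called 2761 for combination over cisplatin, 4843 for cisplatin over CBLB502 and 8772 for the interaction. For DESeq2, the replicate block, the 2-group fits and the fit with no filter, the share of all genes called is not given here. In either organ those counts are therefore not set against all genes. In kidney, cisplatin over control (4) gave 1 with only the 2 groups, a fit in which 7 of the 10 members passed the filter on low counts, cisplatin over CBLB502 (2) gave 1 with only the 2 groups, and combination over cisplatin (0) gave 1 with DESeq2.

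Leaving out 1 library gave 1 to 7 called for cisplatin over control, 2 to 3 for combination over control, 0 to 9 for combination over cisplatin, 0 to 9 for cisplatin over CBLB502 and 0 to 6 for the interaction in liver. In kidney it gave 3 to 5 for cisplatin over control, 3 to 6 for combination over control, 0 to 1 for combination over cisplatin and 1 to 2 for cisplatin over CBLB502. Among values called on either scale, signs changed with limma on FPKM for Cyp27a1 (1.64) in cisplatin over control, for Cyp27a1 (2.49), Abcb11 (2.57), Nr0b2 (2.01) and Nr1h4 (1.77) in CBLB502 over control, for Nr1h4 (2.71) in combination over control and for Cyp27a1 (-1.28) in the interaction. Leaving out 1 cisplatin library ranged from -3.68 (without library 3) to 2.42 for Cyp7a1 and from -4.10 (without library 3) to 0.96 for Cyp8b1 in cisplatin over control, from -1.15 (without library 3) to 0.48 for Nr1h4 in cisplatin over CBLB502, and from -2.17 to 3.93 (without library 3) for Cyp7a1 in the interaction; the cause was not tested. Between organs, without cisplatin liver library 3, called members were 7 for cisplatin over control (4), 5 for combination over cisplatin (0) and 5 for cisplatin over CBLB502 (0), and Nr1h4 changed sign in kidney over liver of the cisplatin arm, at 1.13. Cisplatin kidney library 6 stayed in that fit.

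Same-numbered liver libraries correlated at -0.169 to 0.176 in their deviations. Libraries with different numbers were not correlated as a reference, so this range cannot tell whether the numbers pair them. With the replicate block 3 members were called in cisplatin over control, 3 in CBLB502 over control, 3 in combination over control, 0 in combination over cisplatin, 2 in cisplatin over CBLB502, 0 in combination over CBLB502 and 1 in the interaction, where Nr1h4 (2.75) took the place of Cyp27a1 (1.44, adjusted p = 0.0510). No paired analysis was possible in kidney because the treated kidney columns are tied to their arm only and their numbers match no sample label.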
